A study of Mus musculus with 15 samples.

Results

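A set of 10 genes that encode the main heat shock chaperones of the cytosol and the mitochondrion was followed in mouse hematopoietic progenitors with altered Ddx41. They were chosen by name: Hspa1a, Hspa1b, Hspa8, Hsp90aa1, Hsp90ab1, Hsph1, Dnajb1, Dnaja1, Hspd1 and Hspe1, 10 of the 55359 genes in the deposited tables. RNA was sequenced from 15 libraries in 5 groups of 3. Het R525H, Het G173R, Het DDX41 and Het empty are a hi-Ddx41+/- line given, by retrovirus, DDX41 with the R525H substitution, DDX41 with the G173R substitution, wild-type DDX41, or no insert. WT empty is a hi-Ddx41+/+ line given the virus without insert. All cells derive from fetal liver, were immortalized with Hoxb8 and grown with β-estradiol, and were incubated with virus for 2 days before sorting for GFP, so the controls carry both the immortalization and a virus. The labels do not state how many clones or animals each line comes from, or the age of the fetuses.

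Total expected counts ran between 22104066 and 49145873 per library. Levels in CPM are counts scaled to library totals that were adjusted by TMM factors (0.969 to 1.06). Ddx41, the targeted gene, averaged 32.1 ± 2.81 CPM in Het R525H, 33.3 ± 4.86 in Het G173R, 33.1 ± 3.11 in Het DDX41 and 30.3 ± 2.34 in Het empty, against 59.3 ± 3.94 in WT empty (SD, n = 3 each). Libraries were grouped by their titles, although 12 of the 15 file names carry another code than the title of their sample. Which of the 2 is right was not tested. Ddx41 levels set WT empty apart but do not tell the heterozygous groups from each other, so comparisons among those groups rest on the titles. Progenitor markers were present in every library (Cd34 at 1290 to 1750 CPM, Kit at 435 to 576 CPM, Mpo at 604 to 2010 CPM), whereas Hoxa9 was at 0 in 13 libraries. Of the markers of other cells, Alb, Ttr, Col1a1, Col3a1, Cdh5 and Hba-a1 were at 0 in all 15. Others were present in every library, among them Adgre1 (122 to 348 CPM), Cpa3 (11.6 to 58.7 CPM) and Pecam1 (6.6 to 22 CPM). Afp, Gata1, Klf1, Hbb-bt and Epor were also above 0 in all 15, at lower levels, so markers of other cells were not absent as a set. The 5 libraries numbered 3 in the titles, 1 in each group, stood apart from those numbered 1 and 2.

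Heat shock chaperones bind unfolded or partly folded proteins and use ATP to release them for folding. The HSP70 proteins (Hspa1a, Hspa1b, Hspa8) take up clients delivered by J-domain proteins (Dnaja1, Dnajb1) and are reset by nucleotide exchange factors such as Hsph1, while the HSP90 proteins (Hsp90aa1, Hsp90ab1) finish the folding of kinases and hormone receptors. Hspd1 and Hspe1 form the folding chamber of the mitochondrial matrix and its lid. Some members, such as Hspa8 and Hsp90ab1, are made at all times; others, such as Hspa1a and Hspa1b, are known for strong induction by heat shock factor 1, which binds alternating GAA and TTC units in promoters.

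Promoter sequence is shown as a description, and its relation to the levels was not tested. Windows of 250 bases before a gene's RefSeq start were in the RefSeq promoter table (GRCm38.p6) for 7 of the 10 members, and the window nearest the GENCODE M21 gene start was used. Hspa8, Hsp90aa1 and Hsp90ab1 are not in it. A pair of inverted units of the heat shock element was searched as GAANNTTC and as TTCNNGAA, each of which is its own reverse complement, so both strands are covered. Of 32851 windows in the table, 6.69% held GAANNTTC, 7.17% held TTCNNGAA and 12.8% held either. The 30 bases around each match are given here 5′ to 3′ on the gene's strand, with the matching bases in capitals:
Hspa1b (chr17:34959324-34959353, minus strand): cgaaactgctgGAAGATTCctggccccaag
Hspa1a (chr17:34972242-34972271, minus strand): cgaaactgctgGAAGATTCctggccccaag
Hsph1 (chr5:149636351-149636380, minus strand): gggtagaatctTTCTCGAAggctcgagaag
Dnaja1 (chr4:40722333-40722362, plus strand): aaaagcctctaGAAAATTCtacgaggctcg
Hspe1 (chr1:55088053-55088082, plus strand): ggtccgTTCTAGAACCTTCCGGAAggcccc
The match began 104 bases before the RefSeq start in Hspa1b and Hspa1a, 33 in Hsph1 and 124 in Dnaja1. By the GENCODE M21 annotation the Hsph1 match and the Dnaja1 window lie inside the gene. Hspe1 held 3 overlapping matches, which began 89, 84 and 79 bases before its RefSeq start. At least 3 alternating units in a row, as in Hspe1, were in 0.466% of all windows. The windows of Dnajb1 and Hspd1 held neither motif, which says only that these letters are not in those 250 bases. The Hspe1 matches lie inside the annotated Hspd1 gene, whose start is at base 55088243. Of the genes without a match, Hspd1 was called lower in the libraries numbered 3 and Dnajb1 was not.

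For a side by side view, the whole windows of Hspa1b, with a match, and of Dnajb1, without one, are printed with the same use of capitals:
Hspa1b (chr17:34959239-34959488, minus strand): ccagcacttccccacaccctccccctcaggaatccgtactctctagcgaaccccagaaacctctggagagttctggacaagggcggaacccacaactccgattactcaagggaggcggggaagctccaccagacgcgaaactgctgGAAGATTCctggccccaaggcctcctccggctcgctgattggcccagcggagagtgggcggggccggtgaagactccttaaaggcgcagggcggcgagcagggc
Dnajb1 (chr8:83607925-83608174, plus strand): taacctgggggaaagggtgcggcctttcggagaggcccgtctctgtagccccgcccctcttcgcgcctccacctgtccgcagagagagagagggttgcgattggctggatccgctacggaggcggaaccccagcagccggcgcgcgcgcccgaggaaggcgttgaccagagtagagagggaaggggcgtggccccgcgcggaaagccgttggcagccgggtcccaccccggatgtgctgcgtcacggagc
The Hspa1a window differs from that of Hspa1b at 3 of 250 bases. The starts of these neighbouring genes lie 12918 bases apart on chromosome 17. Hspd1 and Hspe1 run in opposite directions on chromosome 1, and the annotated genes overlap by 112 bases; whether counting used strand is not given, so reads there cannot be told apart.

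The chaperones were abundant. Together the 10 genes held between 1.05 and 1.52% of a library's expected counts. On the per-length scale (TPM, transcript abundance corrected for length), as the authors deposited it, Hspa8 was highest with a median of 2013 over 15 libraries (lowest 1181, highest 2328). Hsp90ab1 followed with a median of 1661 TPM (1498 to 1868). These ranges overlapped, and Hspa8 was above Hsp90ab1 in 10 of 15 libraries, so their order is not fixed.

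Below this pair, Hsp90aa1 had a median of 941 TPM (752 to 1039), and its range met neither neighbour's. Hspd1 had 587 TPM (389 to 704) and Hspe1 had 366 TPM (236 to 423). The ranges of Hspd1 and Hspe1 overlapped, but within each of the 15 libraries Hspd1 was the higher. The J-domain gene Dnaja1 had 121 TPM (87.2 to 150), apart from both neighbours. Hsph1 had 43.4 TPM (21.5 to 57.1), overlapping Dnajb1 at 21.6 TPM (20.2 to 27.2) but above it in 14 libraries.

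The stress-inducible HSP70 genes were at the bottom. Hspa1b had a median of 1.57 TPM (0.98 to 2.92) and Hspa1a one of 0.01 TPM (0 to 0.07). Hspa1a had 24 counts over all libraries, with at most 7 in one library and 0 after rounding in 5, and was the only member that failed the filter on low counts. The Hspa1b total was 2500 counts. Their transcripts share 58.8% of the 50-base stretches of Hspa1a (GENCODE M21), and RSEM divides reads that match both, so the split between them is uncertain. Counts were also not whole, within 0.001, in all 15 libraries for Hspa8, Hsp90aa1, Dnaja1, Hspd1 and Hspe1, so RSEM divided some of their reads with other genes, and whole in all for Hsp90ab1, Hsph1 and Dnajb1.

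**Figure D1:**
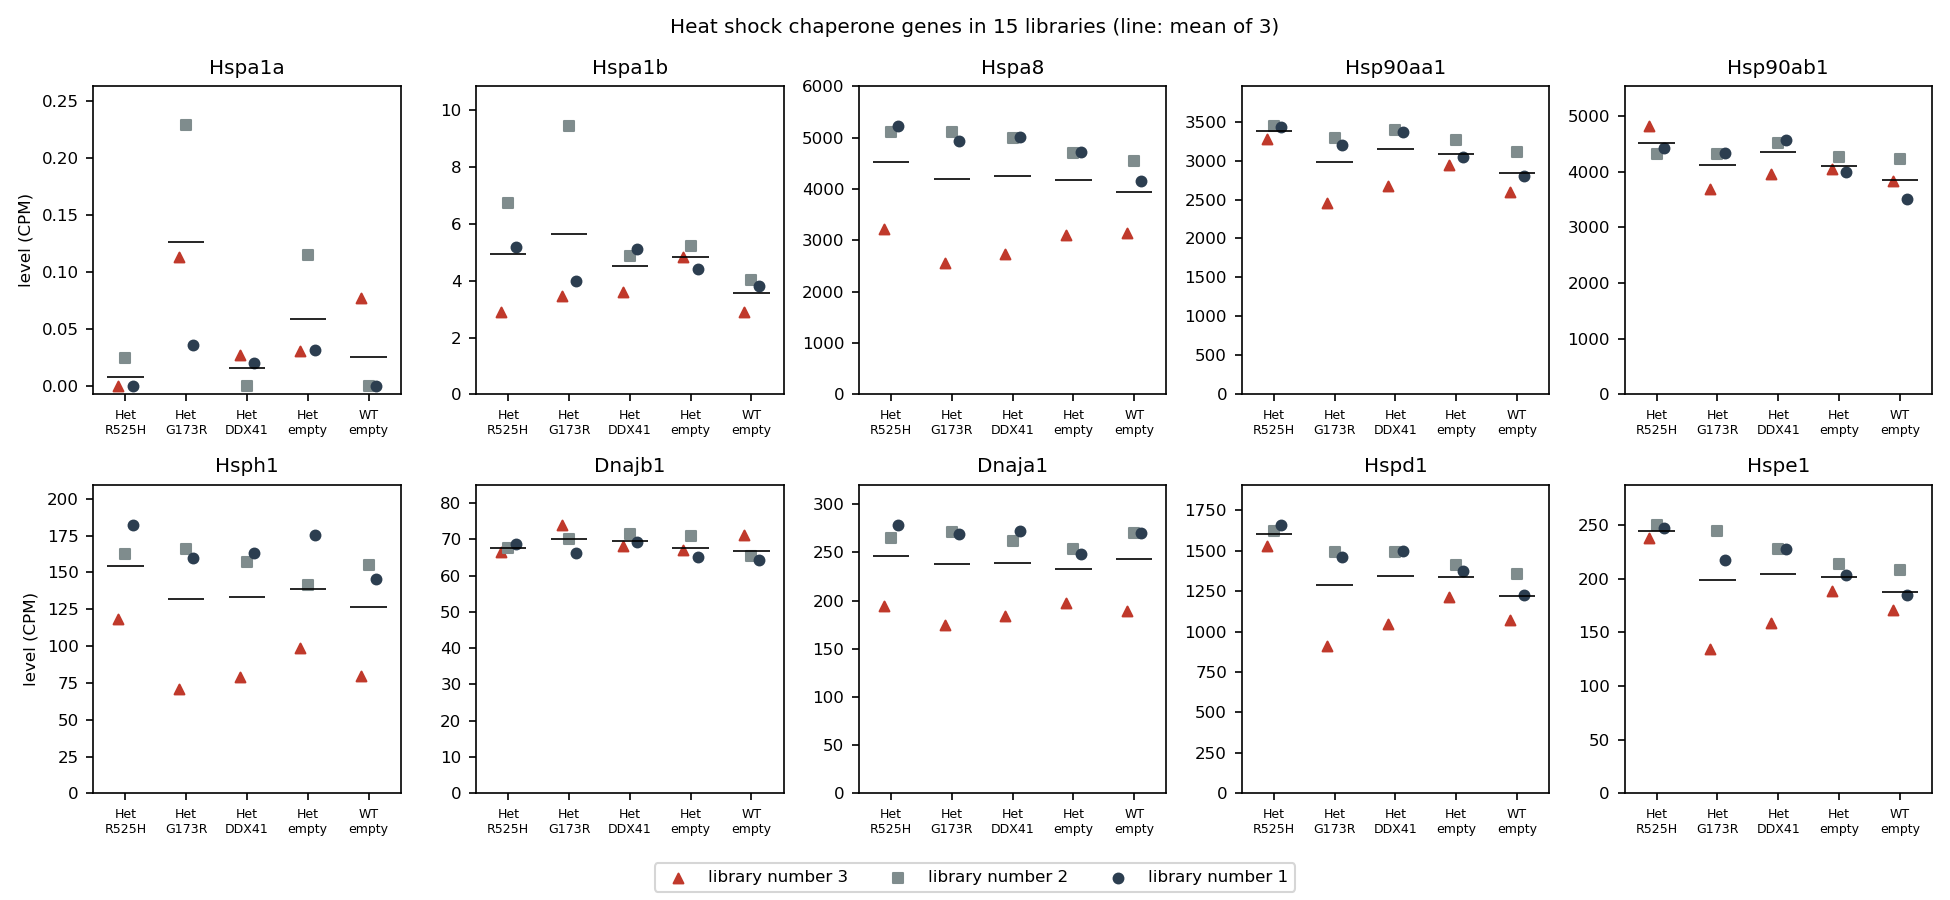
Level of each of the 10 genes in CPM (vertical axes, each with its own scale) in the 15 libraries, by group (horizontal axes); red triangles are libraries numbered 3, grey squares number 2 and dark circles number 1, and lines are group means of 3. The triangles lie below the other symbols of the same group in every group for Hspa8, Hsph1, Dnaja1, Hspd1, Hspe1 and Hsp90aa1. Dnajb1 stays between 64.2 and 73.9 CPM throughout.

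The first comparison asked whether libraries that share a number in their titles share chaperone levels, with group as a second term of the model. Of the 9 members tested, 7 were lower in number 3 than in numbers 1 and 2 (edgeR adjusted p below 0.05): Hsph1, Hspa8, Hspa1b, Dnaja1, Hspd1, Hspe1 and Hsp90aa1. Among all genes tested 46.1% were called in either direction and 25% as lower. The median log2 fold change was -0.35 over the 9 members and -0.003 over all genes. In bulk RNA, fewer cells of a type and less RNA per cell cannot be told apart. The titles give only a number, and what the libraries numbered 3 share was not tested.

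Hsph1, the HSP110 exchange factor, had the greatest fall of the members tested. Number 3 libraries had 118, 71.2, 79.0, 98.5 and 79.8 CPM in Het R525H, Het G173R, Het DDX41, Het empty and WT empty. Numbers 1 and 2 had 182 and 162 CPM in Het R525H, 160 and 166 in Het G173R, 163 and 157 in Het DDX41, 176 and 142 in Het empty, and 145 and 155 in WT empty. In CPM all 5 number 3 libraries lay below all 10 others, while in TPM Het R525H 3 (36.6) was above Het empty 2 (33.6). The log2 fold change was -0.86 (SE 0.08, edgeR adjusted p = 2.34e-06).

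Hspa8, the constitutive HSP70 of the cytosol, was at 3218, 2563, 2732, 3096 and 3134 CPM in the number 3 libraries, in the same order of groups. Numbers 1 and 2 were at 5224 and 5114 CPM in Het R525H, 4935 and 5111 in Het G173R, 5011 and 5000 in Het DDX41, 4714 and 4703 in Het empty, and 4154 and 4549 in WT empty. Again the 5 lay below the 10, and number 3 came to 60.8% of numbers 1 and 2 (log2 fold change -0.72, SE 0.06, edgeR adjusted p = 1.18e-06). Dnaja1, a J-domain partner of HSP70, spanned 175 to 198 CPM in number 3 and 248 to 278 CPM in the others, also without overlap. Its log2 fold change was -0.50 (SE 0.04, edgeR adjusted p = 6.10e-07). Such a lack of overlap in CPM, with number 3 lower, was found for 6.63% of all genes tested and for 3 of the 9 members. In TPM, Dnaja1 overlapped, with WT empty 3 (112.1) above Het G173R 2 (111.5). Hspa8 did not, with 1653 TPM in the highest number 3 library and 1892 TPM in the lowest of the others.

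Both genes of the mitochondrial chamber were lower as well. Hspd1 averaged 1150 ± 235 CPM in number 3 (SD, n = 5) and 1460 ± 127 CPM in numbers 1 and 2 (SD, n = 10), with overlap (log2 fold change -0.35, SE 0.07, edgeR adjusted p = 0.000862). Hspe1 averaged 178 ± 38.6 CPM in number 3 and 222 ± 21.0 CPM in numbers 1 and 2 (-0.33, SE 0.08, edgeR adjusted p = 0.00344). Their TPM ratio, Hspd1 over Hspe1, was 1.512 to 1.647 in number 3 and 1.504 to 1.663 in the others, within the same range.

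Of the HSP90 genes, Hsp90aa1 passed the test and Hsp90ab1 did not. Hsp90aa1, the inducible form, averaged 2790 ± 328 CPM in number 3 and 3230 ± 201 CPM in numbers 1 and 2 (-0.22, SE 0.05, edgeR adjusted p = 0.00255). Hsp90ab1, the constitutive form, averaged 4080 ± 437 CPM in number 3 and 4250 ± 302 CPM in the others, with overlap (-0.06, 95% interval -0.18 to 0.05, edgeR adjusted p = 0.370). The TPM ratio of Hsp90aa1 to Hsp90ab1 was 0.497 to 0.546 in number 3, below the 0.548 to 0.601 of numbers 1 and 2.

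Hspa1b, the inducible HSP70, was at 2.91, 3.46, 3.62, 4.84 and 2.91 CPM in number 3, in the order Het R525H, Het G173R, Het DDX41, Het empty and WT empty. Numbers 1 and 2 spanned 3.82 to 9.44 CPM, the top value being library 2 of Het G173R. The groups overlapped, and the log2 fold change was -0.54 (SE 0.17, edgeR adjusted p = 0.0161). The call was lost without Het R525H 3 (edgeR adjusted p = 0.0724), Het G173R 3 (edgeR adjusted p = 0.0735) or Het DDX41 3 (edgeR adjusted p = 0.0541).

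Dnajb1, the J-domain protein usually induced with HSP70, did not pass the test. It was at 66.5, 73.9, 68.1, 67.0 and 71.1 CPM in number 3, in the same order of groups, and at 64.2 to 71.4 CPM in numbers 1 and 2. Its log2 fold change was 0.03 (95% interval -0.05 to 0.11, edgeR adjusted p = 0.543), so a change of the size seen in Hspa8 lies outside its interval. Number 2 against number 1 gave 0 members and 0 genes called by edgeR, with 1579 genes at an unadjusted p under 0.05 and 24 called by DESeq2.

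**Figure D2:**
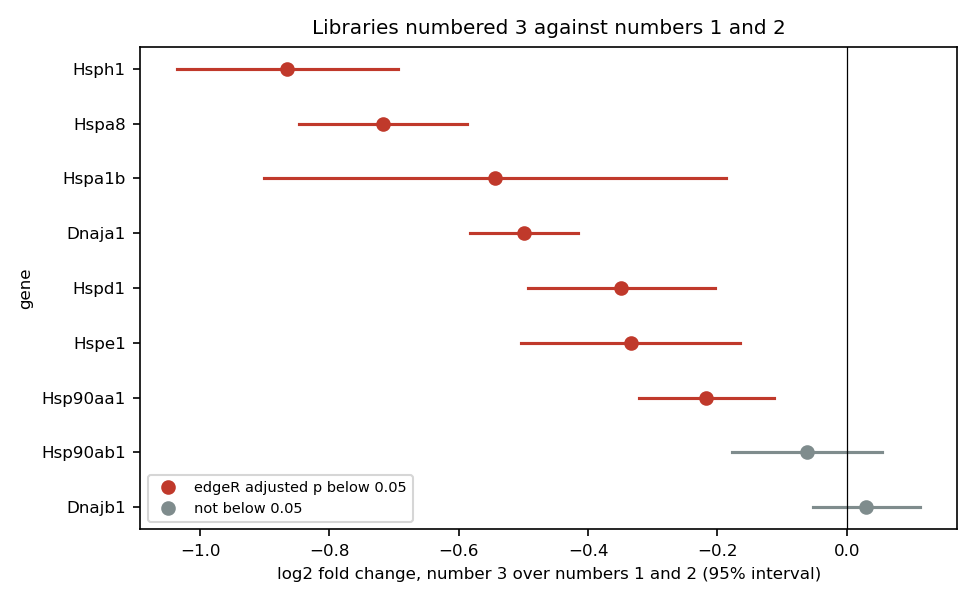
Log2 fold change of libraries numbered 3 over numbers 1 and 2 (horizontal axis) for the 9 genes tested (vertical axis); points are edgeR estimates over 15 libraries, bars are 95% intervals, and red marks an adjusted p below 0.05. Hsph1 at -0.86 and Hspa8 at -0.72 lie farthest left, and the intervals of Hsp90ab1 and Dnajb1 include 0.

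The size of the difference varied with the group, on 1 library numbered 3 in each, so the variation has no replicate check. Het G173R had the lowest number 3 library relative to its own numbers 1 and 2 for Hsph1 (43.7%), Hspa8 (51.0%), Hspd1 (61.6%), Hspe1 (58.2%), Hsp90aa1 (75.5%) and Dnaja1 (64.8%). In Het R525H the number 3 library reached 68.7% for Hsph1, 62.3% for Hspa8, 93.2% for Hspd1 and 95.6% for Hspe1, and for Hsp90ab1 it was above, at 110%. WT empty stood at 53.1% for Hsph1, 72% for Hspa8, 83.2% for Hspd1 and 86.7% for Hspe1.

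**Figure D3:**
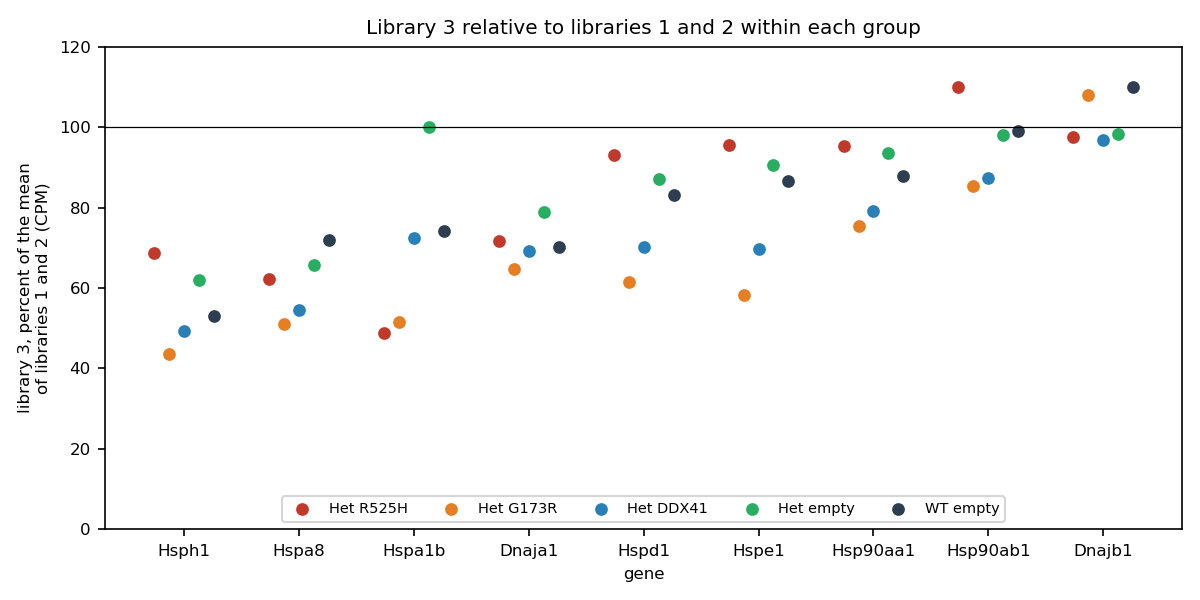
Level in library 3 as a percent of the mean CPM of libraries 1 and 2 of the same group (vertical axis) for the 9 genes tested (horizontal axis), with 1 point per group. Hsph1 spans 43.7 to 68.7% and Hspa8 51.0 to 72%, while Dnajb1 lies on both sides of the 100% line.

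As a share of the sum of squares of log2 CPM over 15 libraries, the library number accounted for 95.3% in Dnaja1, 91.1% in Hspa8 and 85.1% in Hsph1, and the group for 1.04, 2.77 and 6.83%. For Hsp90ab1 the order was turned, with 45.2% for the group, 10.6% for the number and 44.2% for the rest. Dnajb1 had 21.9% for the group, 20.4% for the number and 57.7% for the rest. The edgeR test of any difference among the groups called neither gene, with or without library number as a term. The medians over all genes tested were 26% for the group and 33% for the number.

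Other chaperone lists moved with the same libraries. Of 14 HSP90 co-chaperone genes 11 were lower and 1 was higher in number 3 (edgeR, median log2 fold change -0.28 over the list), where 21.1% of all genes were called higher and 25% lower. Ahsa1, which stimulates the HSP90 ATPase, averaged 163 CPM in number 3 and 250 CPM in numbers 1 and 2 (-0.62). Cacybp averaged 157 CPM in number 3 and 217 CPM in the others (-0.47), and Chordc1, an HSP90-binding protein, 127 CPM in number 3 and 168 CPM in the others (-0.41). Of 13 HSP70 co-chaperone genes tested 7 were lower and 1 was higher (median -0.12). Among them Hspa4, an exchange factor related to Hsph1, had -0.30, Hspbp1, an exchange factor of HSP70, had -0.65, and the J-domain gene Dnajb6 was higher at 0.15.

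Chaperones outside the HSP70 and HSP90 systems of the cytosol had list medians of -0.14 (CCT and prefoldin), -0.12 (mitochondrion) and -0.04 (endoplasmic reticulum). Their counts stand beside 46.1% of all genes called, 25% as lower; the shares of the CCT and endoplasmic reticulum lists called in either direction were under that of all genes. Of 14 genes of the CCT chaperonin, which folds actin and tubulin, and of prefoldin, 6 were lower and 0 higher by edgeR, among them Cct6a (-0.28), Cct3 (-0.27) and Cct7 (-0.18). Of 10 further mitochondrial chaperones and proteases, 6 were lower and 2 higher; the protease gene Lonp1 was higher by 0.32 and the J-domain gene Dnaja3 was lower (-0.20). Of 14 chaperones of the endoplasmic reticulum 5 were lower and 1 was higher. Calr, which binds calcium and glycoproteins, had -0.33, Hyou1 had -0.19, and the stress-induced J-domain gene Dnajb9 had 0.50.

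Genes of heat shock factors and of induction by stress did not share a direction, with a median of 0.16. Of 12 tested, among 16 in the list, 6 were higher and 2 were lower, where 21.1% of all genes were called higher and 25% lower. Hsf1, the main activator of heat shock genes, averaged 25.5 CPM in number 3 and 36.2 CPM in numbers 1 and 2 (-0.50, edgeR adjusted p = 0.000176). Hmox1, heme oxygenase, averaged 99.1 CPM in number 3 and 36.8 CPM in the others (1.41, edgeR adjusted p = 8.14e-08). Hsf4 was also called higher, at under 1 CPM in both.

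A pair of lists outside the chaperones rose in the same libraries, and their part in the chaperone result was not tested. Counts of both lists stand beside 21.1% of all genes called higher and 25% lower. All 13 glycolysis genes were higher, with sums of 20130 to 27400 CPM in number 3 and 13630 to 21220 CPM in numbers 1 and 2; Pgk1 (0.72), Pfkl (0.64) and Gapdh (0.42) had the smallest p. Of 18 immediate early genes 12 were higher and 1 was lower, with sums of 566 to 766 CPM in number 3 and 403 to 590 CPM in the others. Jun had 0.998, Btg2 had 1.82 and Ier3 had 1.77 on the log2 scale. The 9 progenitor markers summed to 3570 to 4010 CPM in number 3, below the 4420 to 5470 CPM of numbers 1 and 2, and this too was not tested against the chaperones. Mitochondrial genes held 2.16 to 2.91% of counts in number 3 and 2.28 to 2.99% in the others.

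**Figure D4:**
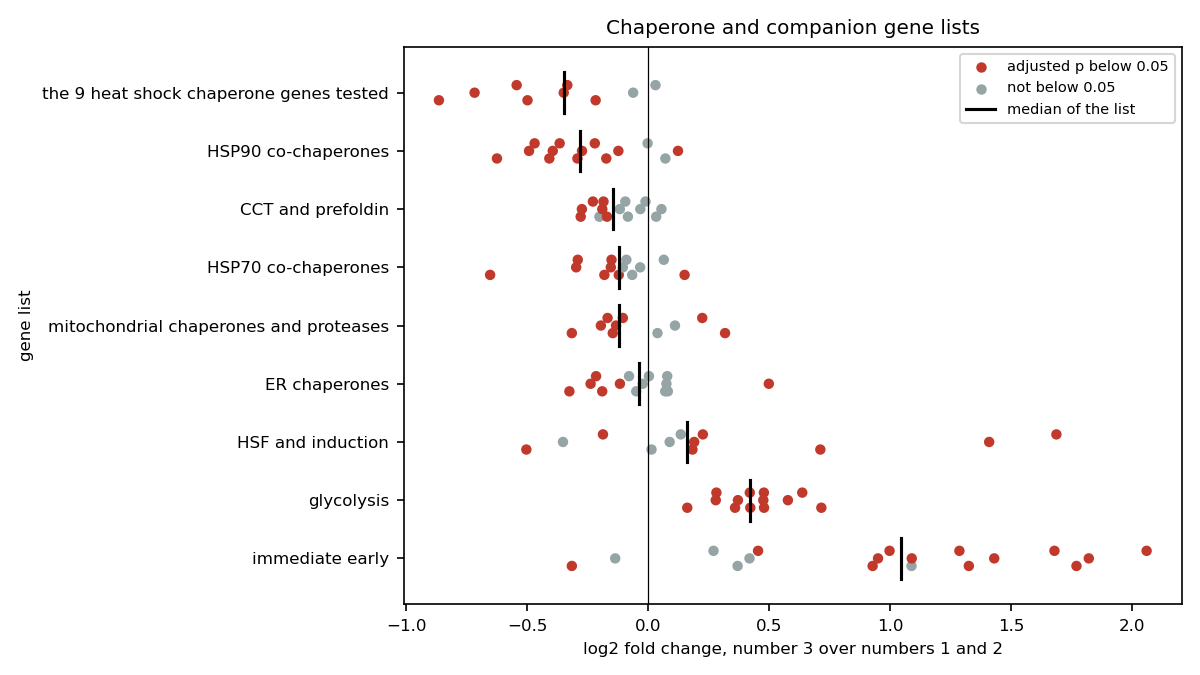
Log2 fold change of number 3 over numbers 1 and 2 (horizontal axis) for the 9 heat shock chaperone genes tested and the genes of 8 companion lists (rows); red points have an edgeR adjusted p below 0.05 and black bars are medians. The medians run from -0.35 for the heat shock chaperones and -0.28 for HSP90 co-chaperones to 0.42 for glycolysis and 1.04 for immediate early genes.

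The second question was whether the chaperones differ between the study's groups. With group as the only term, the difference between library numbers is left in the spread. For Hspa8 in Het R525H over WT empty the SE was then 0.295, and 0.087 with library number as a second term. For Dnajb1 these were 0.065 and 0.058. With group alone, in none of the 10 comparisons of 2 groups was any of the 9 members called by edgeR. DESeq2 with the same term called none either. The F test for any difference among the 5 groups also called none of the 9, with 0 at an unadjusted p under 0.05 and 3.7% of all genes tested called. The unadjusted count was 0 members in 9 comparisons of 2 groups and 3 members in Het R525H against WT empty. With library number as a second term, edgeR called 3 members in Het R525H against WT empty and none in another comparison of groups. The unadjusted count was then 5 members there (4423 of 14548 genes) and 4 in Het G173R against Het R525H (2091 genes). It was 3 in Het R525H against Het DDX41 (1550 genes), 2 in Het R525H against Het empty (1655 genes) and 3 in the F test (3545 genes). Het G173R against WT empty had 1 (3138 genes).

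Het R525H had the highest mean CPM of the 5 groups for 7 of the members tested. In mean TPM, Dnaja1 and Dnajb1 were lower in Het R525H (120 and 21.6) than in WT empty (130 and 24.1). Against WT empty all 9 log2 fold changes were positive, between 0.02 and 0.48, with a median of 0.25 against -0.01 over all genes, and none passed the test in a comparison where 6.68% of genes did. With 1 library left out at a time, Hspa1b ran from 0.18 (without Het R525H 2) to 0.73 (without Het R525H 3), Hspa8 from 0.05 (without WT empty 3) to 0.39 (without Het R525H 3) and Hsph1 from 0.03 (without WT empty 3) to 0.44 (without WT empty 2), while Dnaja1 and Dnajb1 changed sign. For Hspd1, Het R525H libraries 1 to 3 had 1657, 1623 and 1528 CPM, against 1225, 1353 and 1072 CPM in WT empty. For Hspe1 they had 247.1, 249.8 and 237.5 CPM, against 185, 208 and 170 CPM in WT empty. All 3 Het R525H libraries lay above all 3 WT empty libraries for both genes. The log2 fold change was 0.40 for Hspd1 (95% interval 0.03 to 0.77, edgeR adjusted p = 0.230) and 0.38 for Hspe1 (-0.01 to 0.77, edgeR adjusted p = 0.280).

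Both HSP90 genes were also higher, in CPM, in every Het R525H library than in any WT empty library. Hsp90aa1 was at 3431, 3441 and 3280 CPM in Het R525H, against 2805, 3111 and 2596 CPM in WT empty. Hsp90ab1 was at 4436, 4318 and 4821 CPM in Het R525H, against 3518, 4229 and 3837 CPM in WT empty. The log2 fold changes were 0.25 for Hsp90aa1 (0.005 to 0.50, edgeR adjusted p = 0.257) and 0.23 for Hsp90ab1 (0.04 to 0.42, edgeR adjusted p = 0.162). Such a separation upward in CPM was found for 4 of the 9 members and for 11.7% of all genes tested. In TPM both HSP90 genes overlapped. Hsp90aa1 was at 1039, 983 and 941 TPM in Het R525H, against 994, 905 and 911 TPM in WT empty. Hsp90ab1 was at 1801, 1661 and 1868 TPM in Het R525H, against 1654, 1651 and 1805 TPM in WT empty.

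The calls in this comparison differed between models. With library number as a second term, edgeR called Hspd1 (0.41, edgeR adjusted p = 0.0107), Hspe1 (0.39, edgeR adjusted p = 0.0325) and Hsp90aa1 (0.26, edgeR adjusted p = 0.0239) as higher. In that fit 17.3% of all genes were called. With libraries 1 and 2 of each group alone, edgeR called Hspd1 (0.35, edgeR adjusted p = 0.00344), Hspe1 (0.34, edgeR adjusted p = 0.0106) and Hspa8 (0.25, edgeR adjusted p = 0.0224) as higher in Het R525H than in WT empty, with 13.2% of all genes called. There Hspd1 was also called in the test for any difference among the 5 groups (edgeR adjusted p = 0.0328, 7.36% of genes called). With only the 6 libraries of the 2 groups in the model, Hspd1 (0.41, edgeR adjusted p = 0.0489) and Hspe1 (0.40, edgeR adjusted p = 0.0363) were called, with 4.45% of all genes. Summed levels of 5 mast cell and basophil markers were 20.6 to 25.1 CPM in Het R525H and 57.0 to 110 CPM in WT empty, and those of 5 monocyte and macrophage markers 173 to 234 CPM in Het R525H and 228 to 370 CPM in WT empty. Their part in the chaperone values was not tested.

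Against Het empty, with the same line and virus, Het R525H had 0 of 9 members called where 0.0137% of genes were called. In CPM, all 3 Het R525H libraries lay above all 3 Het empty libraries for Hspd1, Hspe1, Hsp90aa1 and Hsp90ab1, a separation found for 6.39% of all genes. In TPM both HSP90 genes overlapped. The lowest Het R525H libraries were at 941 TPM (Hsp90aa1) and 1661 TPM (Hsp90ab1), and the highest Het empty libraries at 956 and 1676 TPM. Hspd1 was at 1657, 1623 and 1528 CPM in Het R525H, against 1375, 1414 and 1216 CPM in Het empty, a log2 fold change of 0.26 (95% interval -0.11 to 0.64, edgeR adjusted p = 0.9998). Hspe1 averaged 245 ± 6.49 CPM in Het R525H and 202 ± 12.4 CPM in Het empty (SD, n = 3 each; 0.28, -0.11 to 0.67). Against Het DDX41, none of the 9 was called, as was none of all genes by edgeR (0%, with 581 at an unadjusted p under 0.05 and 35 by DESeq2). There Hspd1 and Hspe1 separated, as did 5.16% of all genes; the lowest Het R525H library, at 1528 CPM of Hspd1, lay above the 1497, 1489 and 1049 CPM of Het DDX41.

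Het G173R against Het R525H called 0.0825% of genes and none of the 9 members. Hspd1 had 1459, 1492 and 909 CPM in Het G173R, all below the lowest Het R525H library at 1528 CPM, as 5.84% of all genes did in this direction. The log2 fold change of Het G173R over Het R525H was -0.32 (95% interval -0.69 to 0.06, edgeR adjusted p = 0.835), and for Hspe1, whose groups overlapped, -0.30 (-0.69 to 0.09, edgeR adjusted p = 0.893). With library number as a second term it was -0.35 for Hspd1 (-0.56 to -0.13, edgeR adjusted p = 0.117) and -0.33 for Hspe1 (-0.58 to -0.08, edgeR adjusted p = 0.195). A p that misses the threshold does not show that the 2 substitutions act alike on these genes.

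The remaining comparisons gave small values. Het DDX41 over Het empty spanned -0.09 to 0.08 on the log2 scale over the 9 members, with 0 genes called among all tested (0%, 254 at an unadjusted p under 0.05, 3 by DESeq2). Het G173R over Het empty spanned -0.07 to 0.22, also with 0 genes called (0%, 88 unadjusted, 3 by DESeq2). Het G173R over Het DDX41 spanned -0.08 to 0.31, with 0 genes called (0%, 224 unadjusted, 4 by DESeq2). The greatest value in both comparisons of Het G173R was that of Hspa1b, at 3.99, 9.44 and 3.46 CPM in libraries 1 to 3 of that group. Without library 2 the Hspa1b values were -0.37 over Het empty and -0.28 over Het DDX41.

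Against the wild-type line, none of the 9 was called in Het G173R (3.79% of genes called), Het DDX41 (4.54%) or Het empty (3.66%). The log2 fold changes over the 9 members spanned -0.03 to 0.65 in Het G173R, -0.02 to 0.34 in Het DDX41 and -0.06 to 0.43 in Het empty, with Hspa1b the greatest each time (0.06 in Het G173R without its library 2). In TPM the lowest Het empty library and the highest WT empty library were both at 1.57 for Hspa1b. In CPM Hspa1b was at 4.42, 5.22 and 4.84 in Het empty, against 3.82, 4.02 and 2.91 in WT empty. These did not overlap, as for 8.33% of all genes in that direction. Its interval, -0.34 to 1.20, was wide, on 112 to 181 counts per library in Het empty and WT empty. With library number as a second term the interval was -0.07 to 0.97.

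**Figure D5:**
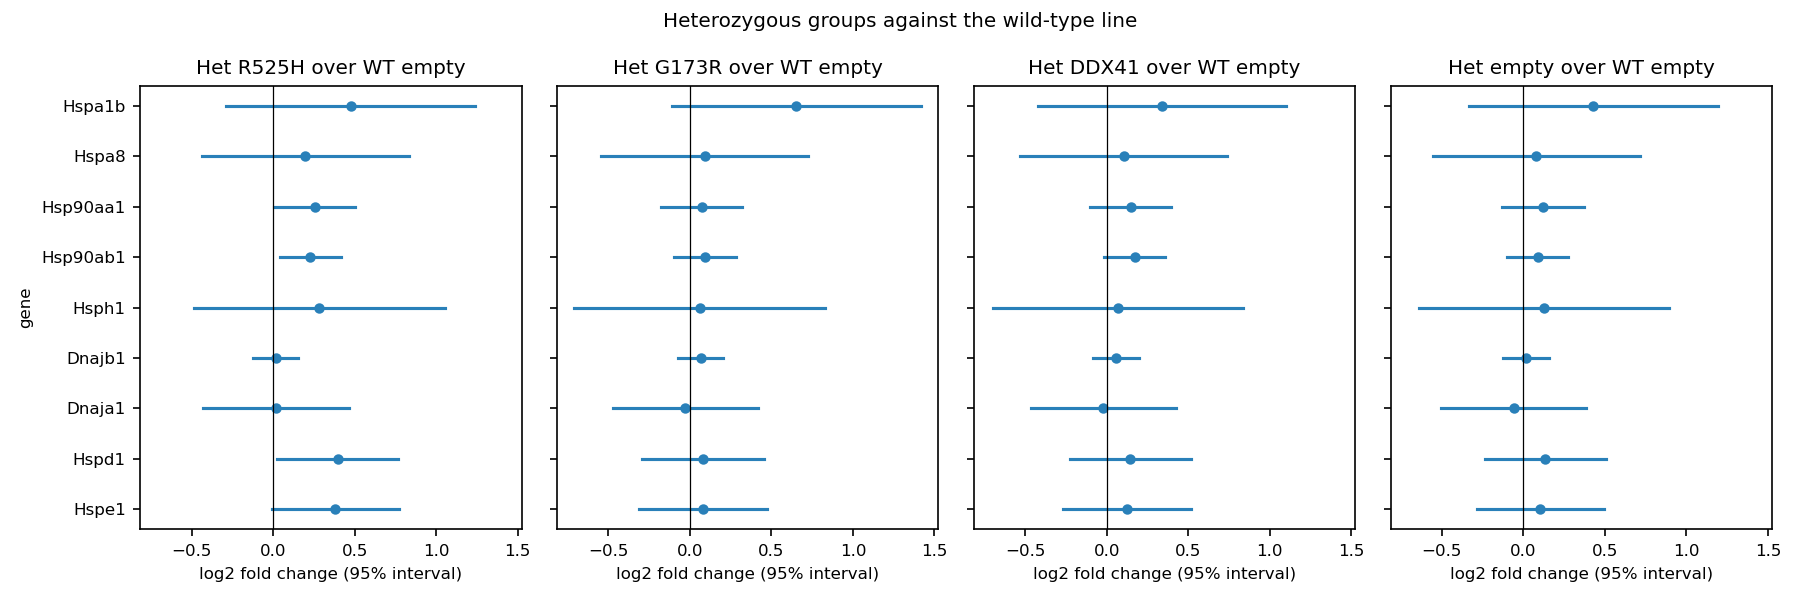
Log2 fold change of each heterozygous group over WT empty (horizontal axes) for the 9 genes tested (vertical axis); points are edgeR estimates from 3 libraries a group and bars are 95% intervals. All 9 points are right of 0 for Het R525H, and Hspa8, Hsph1, Dnaja1 and Hspa1b have wider intervals than Dnajb1 and Hsp90ab1 in all 4 panels.

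Between groups, counts of the companion lists stand beside 6.68% of all genes called in Het R525H against WT empty and 4.54% in Het DDX41 against WT empty. In Het R525H against WT empty, edgeR called Hspa9, the mitochondrial HSP70, at 987 CPM in Het R525H and 778 CPM in WT empty (0.34, edgeR adjusted p = 0.00540). Of the same list Timm44, which tethers that chaperone to the import channel, was lower (-0.31, edgeR adjusted p = 0.0499). The chaperonin subunit gene Tcp1 was higher (0.30, edgeR adjusted p = 0.0140). Of 14 endoplasmic reticulum chaperones 3 were higher: Hsp90b1, the HSP90 of that compartment (0.33, edgeR adjusted p = 0.0208), Manf (0.27, edgeR adjusted p = 0.0331) and Hspa5, its HSP70 (0.28, edgeR adjusted p = 0.0418). Hsp90b1 was also higher in Het DDX41, at 1650 CPM against 1310 CPM in WT empty (0.33, edgeR adjusted p = 0.0258). Without the replicate block, no other comparison of 2 groups called a gene of the 8 lists. With it, where the library numbers pair the groups, edgeR called 11 of 13 glycolysis genes, Bag3 and Lonp1 as higher in Het empty than in WT empty, with 9.29% of all genes called. This was not particular to Het empty. With the block, 11 glycolysis genes were called higher in Het G173R, 11 in Het DDX41 and 10 in Het R525H against WT empty. All genes called there were 9.99, 13 and 17.3%, and same-numbered libraries did not all correlate over 0.1. Bag3 and Lonp1 were also called higher in Het DDX41. The glucose transporter gene Slc2a1 was at 156 CPM in Het empty and 104 CPM in WT empty (0.62, edgeR adjusted p = 0.000809), Bag3 had 0.38 (edgeR adjusted p = 0.0482) and Lonp1 had 0.23 (edgeR adjusted p = 0.0416). With the block Timm44 was also higher in Het G173R, at 124 CPM against 96.5 CPM in Het R525H (0.35, edgeR adjusted p = 0.00649), with 0.969% of all genes called.

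As a description over the 15 libraries, which share the library numbers, the members fell into sets by likeness. The Pearson correlation of log2 CPM was 0.97 for Hspa8 with Dnaja1, 0.96 for Hspa8 with Hsph1 and 0.99 for Hspd1 with Hspe1. Dnajb1 had correlations between -0.41 and 0.11 with the other 8 members tested. Among 9084 genes of at least 5 CPM, those most like Hspd1 were Hspe1 (0.988), Cct8 (0.983), Hsp90aa1 (0.980), Abce1 (0.973) and Timm8a1 (0.972). Those most like Hsp90aa1 were Hspd1 (0.980), Cct8 (0.977), Gpat4 (0.974), Ipo5 (0.969) and Hspe1 (0.969). Those most like Dnajb1 were Cd81 (0.743), Narf (0.738), Kdm4b (0.736), Slc35a2 (0.732) and Plekha2 (0.726), at lower values than for the other 2 genes.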

How the data were processed

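Each library has 1 deposited gene table. It comes from RSEM, per the submitters' processing notes and the file headers. The RSEM version, aligner and build were not given in the sources used here. A stranded kit for total RNA with ribosomal RNA reduction was used, per the labels; whether counting used strand is not given. Deposited expected counts were rounded to whole numbers; TPM, scaled for gene length by the authors, gave levels between genes, and the deposited FPKM was not used.

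Genes passing filterByExpr (14548) were scaled by TMM (0.969 to 1.06) and tested with edgeR 4.0.16 (R 4.3.3), quasi-likelihood, Benjamini-Hochberg adjustment over all of them, threshold 0.05. Group comparisons had group as the only term in 1 model of 15 libraries; the comparison of library numbers had group and number. DESeq2 1.42.0, other scaling, no filter, a replicate block, subsets and leaving out each library were alternatives. Scripts were tested on simulated data.

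Same-numbered libraries deviated together (every correlation over 0.1, over genes) in 5 comparisons: Het empty against WT empty (0.358 to 0.490), and Het G173R against Het empty (0.181 to 0.399), Het DDX41 (0.280 to 0.707) and Het R525H (0.287 to 0.643), and Het R525H against Het DDX41 (0.321 to 0.635). There the block changed no member call. It moved the genes called to 1352 for Het empty against WT empty, against 532 without it; for Het G173R against Het DDX41 to 1, against 0; for Het R525H against Het DDX41 to 59, against 0; and for Het G173R against Het R525H to 141, against 12.

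The members and lists, and the comparison of number 3, were chosen with earlier results of these data known. All members are named, and up to 3 called genes of smallest p per list, plus the 5 genes most like each of 3 members. No label says that the libraries of a group are separate cultures, and p-values measure only their spread, which can be technical. Positions are GRCm38.p6.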

Additional observations from a re-analysis of the deposited data

How the results depend on the processing

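The 7 members lower in number 3, and none between groups, were also the counts under other scaling, without a filter on low counts, with Hspa1a and Hspa1b summed and by DESeq2, and for number 3 in the heterozygous groups alone. For Het R525H against WT empty the count was 3 with the replicate block (Hsp90aa1, Hspd1 and Hspe1), with 17.3% of genes called. The correlations of same-numbered libraries in these groups were 0.0228 to 0.365, positive but not all over 0.1. The count was 2 with only the 2 groups in the model and 3 with libraries 1 and 2 alone, where the test of any difference gave 1. Leaving out 1 library gave 6 to 7 members for number 3 and 0 between groups. The log2 fold change in Het R525H against WT empty ran from -0.140 to 0.155 for Dnaja1 and from -0.0175 to 0.0556 for Dnajb1: for Dnajb1 it was -0.0175 and -0.0120 without WT empty 1 or 2 and -0.000575 without Het R525H 1, and for Dnaja1 -0.140 without WT empty 3 and -0.0859 and -0.0465 without Het R525H 1 or 2. For number 3, Hsp90ab1 ran from -0.11 to 0.0116, with 0.0116 without Het DDX41 3. The causes were not tested. Of 90 member values between groups, none called, 53 changed sign under some alternative, the greatest of these being 0.31. Low counts of Hspa1a and Hspa1b limit what can be said of them. Counts over all genes moved by over 1.5 times in several comparisons. For Het R525H against WT empty 972 genes were called, 2522 with the block, 1904 with libraries 1 and 2 alone and 610 with only the 2 groups. For Het G173R and Het DDX41 against WT empty the counts were 551 and 661, with 1453 and 1887 under the block, 1133 and 1307 with libraries 1 and 2 alone, 278 and 396 with only the 2 groups and 841 and 1053 by DESeq2. For Het empty against WT empty the count of 532 became 1068 with libraries 1 and 2 alone and 804 by DESeq2. For Het R525H against Het empty 2 became 63, 19, 0 and 60 under the block, libraries 1 and 2 alone, only the 2 groups and DESeq2, and 5 without a filter; for Het G173R against Het R525H 12 became 38, 0 and 119 with libraries 1 and 2 alone, only the 2 groups and DESeq2. For Het R525H against Het DDX41 the count was 14 with libraries 1 and 2 alone, and for Het G173R against Het DDX41 it was 1. The test of any difference called 538, against 1762, 1062 and 1153 under the block, libraries 1 and 2 alone and DESeq2. For number 2 against number 1 without a filter, 147 genes were called. With 1 library left out, the counts were 604 to 754 for Het R525H against WT empty (lowest without Het R525H 1, and 632 without Het R525H 2), 399 to 547 for Het DDX41 against WT empty (399 without WT empty 1, 416 and 423 without Het DDX41 1 or 2), 326 to 597 for any difference (326, 339 and 353 without WT empty 2, 3 or 1) and 0 to 8 for Het G173R against Het R525H.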
